A study of Mus musculus with 12 samples.

Results

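The genes described here are those of 3 chemokine ligands and 2 chemokine receptors that guide leukocytes into and within lymphoid tissue: Ccl19, Ccl21a, Ccl20, Ccr7 and Cxcr4. They were chosen by name and not by a measured value, though with earlier results of these data known. All 5 were found among the 248 inflammation-related genes measured by the nanostring approach. In this assay colour-coded probes bound to each mRNA are counted one by one, without amplification. The samples were 6 of blood monocytes (MNCs) and 6 of liver macrophages, the Kupffer cells (KCs), from Balb/C mice with no treatment named; the labels give no age. Each was a pool of sorted cells, from 5 animals by the labels and from 4 to 5 by the methods of the study. Both cell types were enriched with magnetic beads that bind the macrophage surface marker F4/80, and only the liver was digested with collagenases. The values are normalized counts, in which the authors multiplied each sample by 1 factor from positive controls and housekeeping genes.

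CCL19 and CCL21 are made in lymph nodes and spleen by stromal cells, and both bind CCR7, the receptor with which naive T cells and matured dendritic cells enter the T cell zones of these organs. CCL20 is induced in epithelia and inflamed tissue and draws cells that carry CCR6. CXCR4 is the receptor of CXCL12, holds blood cell precursors in the bone marrow and is found on most leukocytes. Ccr6, Cxcl12 and the scavenging receptors Ackr3 and Ackr4 were not analysed here. In the RefSeq annotation of GRCm38.p6 the genes of Ccl19 and Ccl21a are neighbours with no protein-coding gene in between. The same annotation holds the near-identical copies Ccl21b, Ccl21c and Ccl21d, as well as pseudogenes of Ccl19. Which of them the probes bind is not given in the sources used here, so the counts of Ccl21a may include its copies.

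For the ligand gene that differed most between samples and for a receptor gene that was high in every sample, the 250 bases before the gene start are shown, 5′ to 3′, to set the promoter of a gene measured in few samples beside that of a gene measured in all. The stretches are chr1:83116516-83116765 on the plus strand for Ccl20 and chr1:128592300-128592549 on the minus strand for Cxcr4 (RefSeq, GRCm38.p6). Capitals mark matches, on either strand, to the NF-kB consensus or to TATAAA.
Ccl20: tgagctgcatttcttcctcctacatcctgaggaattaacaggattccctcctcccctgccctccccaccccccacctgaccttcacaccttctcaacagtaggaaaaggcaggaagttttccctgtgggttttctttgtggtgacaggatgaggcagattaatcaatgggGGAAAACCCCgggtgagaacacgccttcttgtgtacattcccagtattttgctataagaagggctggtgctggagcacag
Cxcr4: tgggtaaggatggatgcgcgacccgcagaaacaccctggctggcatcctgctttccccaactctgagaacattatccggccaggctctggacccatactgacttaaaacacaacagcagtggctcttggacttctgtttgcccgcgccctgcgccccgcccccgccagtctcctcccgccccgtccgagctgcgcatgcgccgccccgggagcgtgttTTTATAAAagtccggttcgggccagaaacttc
The Ccl20 stretch holds 1 match to the NF-kB consensus, which begins 80 bases before the gene start, and no TATAAA. The Cxcr4 stretch holds 2 overlapping matches to TATAAA, 1 on each strand, and none to the NF-kB consensus. Of 32851 stretches of the same length, 7.25% hold the NF-kB consensus and 12.4% hold TATAAA. The stretches of Ccl19 and Ccl21a hold neither. 4 of the 5 genes had an entry, all but Ccr7.

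The 5 genes fell into 2 sets by level. Ccr7 and Cxcr4 were far above the background in all 12 samples, while Ccl19, Ccl21a and Ccl20 were at or close to it in most. In the limma test of log2(normalized count + 1), with p-values adjusted by the method of Benjamini and Hochberg over all 248 genes, 0 of the 5 differed between the cell types at an adjusted p under 0.05. In the whole panel 140 genes (56.5%) did, 87 of them (35.1% of the panel) higher and 53 (21.4%) lower in Kupffer cells. All samples of a cell type lay above all of the other for 0 of the 5 genes, against 103 genes (41.5%) of the panel. At an unadjusted p under 0.05 the number was also 0 of 5, and by exact permutation tests over the samples it was again 0 of 5. Those two-sided p-values were 0.165 to 0.591, where the smallest that 6 samples against 6 can give is 0.00216.

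**Figure D1:**
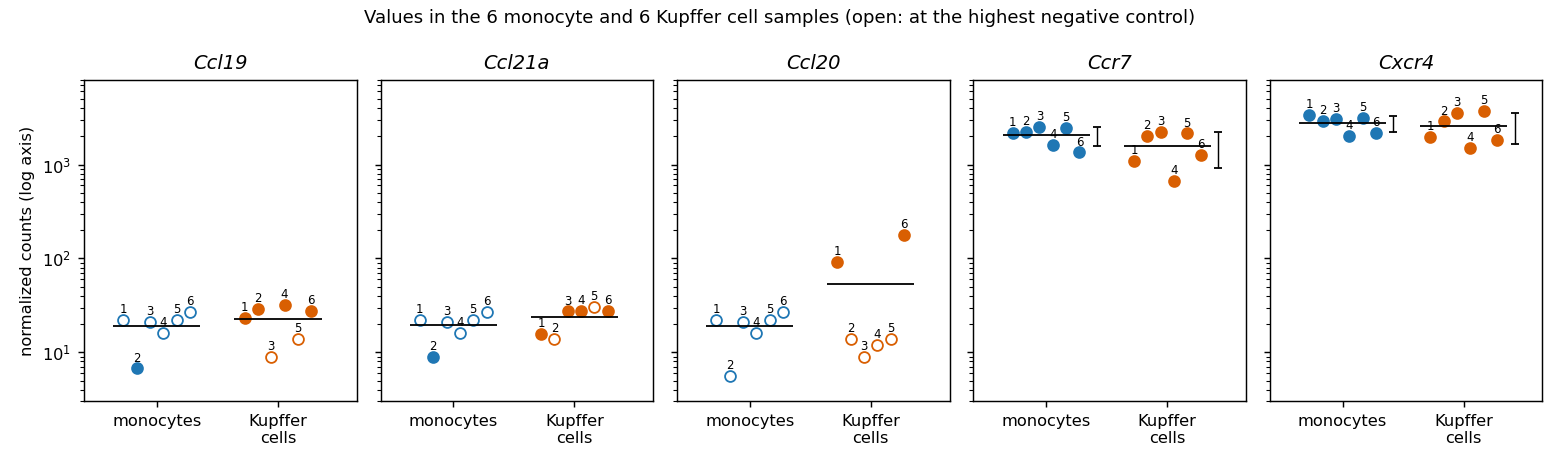
Normalized counts on a log axis for each of the 5 genes in the 6 monocyte and 6 Kupffer cell samples, with sample numbers above the points. Open points are at the highest negative control of the sample, horizontal lines are means, and bars beside Ccr7 and Cxcr4 are mean ± SD (n = 6). Ccr7 and Cxcr4 overlap between the cell types, and Ccl20 stands out from the background in Kupffer cell samples 1 and 6.

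Ccr7 was measured in monocytes at 1346 to 2519.6 normalized counts, with a median of 2204. In Kupffer cells it ranged from 669 to 2237, with a median of 1643. The ranges overlapped: monocyte samples 1, 4 and 6 lay within the range of the Kupffer cells, and Kupffer cell samples 1, 4 and 6 lay below every monocyte sample. The means were 2059.55 ± 474 in monocytes and 1572 ± 647 in Kupffer cells (SD, n = 6 samples each). The log2 fold change, Kupffer cells over monocytes, was -0.48 (standard error 0.29, 95% interval -1.11 to 0.15), with an adjusted p of 0.159 from limma. The interval thus included 0. Without Kupffer cell sample 4, the lowest of all 12, the log2 fold change was -0.26 (adjusted p = 0.349). With samples rescaled to their median gene, which lowered the median log2 fold change of all genes by 0.26, that of Ccr7 was -0.74 and its adjusted p 0.0464, the lowest of the alternatives (0.0464 to 0.349).

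Cxcr4 had 2031 to 3363 normalized counts in monocytes, with a median of 2975, and 1517 to 3754 in Kupffer cells, with a median of 2429. Here the Kupffer cell samples reached both above and below the monocyte samples. Samples 3 and 5 of the Kupffer cells were the highest of the 12, and samples 1, 4 and 6 the lowest. With means of 2772 ± 546 and 2589 ± 952, the log2 fold change was -0.16 (standard error 0.24, 95% interval -0.68 to 0.36; adjusted p = 0.561 from limma). Cxcr4 was called under none of the alternatives, whose adjusted p ranged from 0.162 to 0.931, and its log2 fold change from -0.42 to -0.020.

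The counts behind these values were 1992 to 4162 molecules of Ccr7 and 2588 to 5282 of Cxcr4 per monocyte sample, and 315 to 1148 and 714 to 1837 per Kupffer cell sample. The spread between samples was large for genes of this panel. Among the 160 genes above the background in all 12 samples, the SD of Ccr7 between Kupffer cell samples, 0.69 on the log2 scale, exceeded that of 91.25% of genes, and its SD between monocyte samples, 0.36, that of 81.25%. For Cxcr4 the SDs were 0.54 and 0.30, above those of 80.6% and 70.6% of genes. The median SD of the 160 genes was 0.35 in Kupffer cells and 0.22 in monocytes.

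The Kupffer cell samples split in the same way for both receptors. Samples 2, 3 and 5 had 2009.9, 2237 and 2143 normalized counts of Ccr7, and samples 1, 4 and 6 had 1095, 669 and 1277. For Cxcr4 the former had 2879.6, 3580.0 and 3754, and the latter 1978, 1517 and 1826. In monocytes, samples 4 and 6 were the lowest for both genes, with 1619 and 1346 for Ccr7 and 2031 and 2158 for Cxcr4. Their totals, 187350 and 189849, were the highest of the monocyte samples (175342 to 189849). The part of the totals in the receptor values was not tested. As the samples of a cell type fell into separate groups, no correlation was tested. As a description, the genes most like Ccr7, by the correlation of log2 values after subtracting the mean of each cell type (12 samples, 159 genes compared), were Cd55, a regulator of complement (r = 0.97), Grb2, an adaptor of receptor tyrosine kinases (0.96), and Map2k1, a kinase of the MAP kinase cascade (0.95). Within monocytes these values were 0.955, 0.968 and 0.949, and within Kupffer cells 0.975, 0.966 and 0.984. Most like Cxcr4 were Ccr7 itself (r = 0.93), Cfl1, which severs actin filaments (0.93), and Nfatc3, a calcium-regulated transcription factor (0.92). The points of such a correlation share a lane and its scaling factor.

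The ratio of Ccr7 to Cxcr4 within a sample does not depend on the factor. It was 0.624 to 0.830 in monocytes (mean 0.742 ± 0.0863) and 0.441 to 0.699 in Kupffer cells (mean 0.598 ± 0.0982; SD, n = 6 samples each). Monocyte samples 1 and 6, at 0.644 and 0.624, lay within the range of the Kupffer cells, and the other 4 above it. This ratio was chosen after the values were seen and was given no test, and it compares samples only, since probes can differ in how well they bind.

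**Figure D2:**
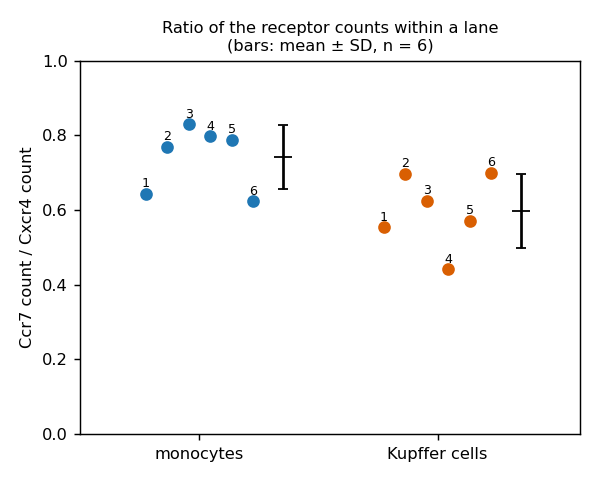
Ratio of the Ccr7 count to the Cxcr4 count in each of the 6 monocyte and 6 Kupffer cell samples, with sample numbers; bars are mean ± SD. The monocyte samples lie between 0.624 and 0.830 and the Kupffer cell samples between 0.441 and 0.699, with an overlap.

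Lymphocytes carry both receptors, and in pooled cells fewer cells of a type and less RNA per cell cannot be told apart, so the genes of other cell types are given beside these values. B cells are not covered, since 0 of the 4 B cell genes listed were analysed. Of 10 genes of T and NK cells on the panel, 6 were called higher in Kupffer cells and 0 lower, or 60% in all, beside 56.5% of the whole panel. Among the 10, Il21 did not exceed the background in any monocyte sample. The summed level of the 10 genes was 4356 to 8457 normalized counts in monocytes and 10623 to 37049 in Kupffer cells. Ccl5, which macrophages can also express, had 3906 ± 1072 of these counts in monocytes and 14244 ± 9941 in Kupffer cells (SD, n = 6 samples each). Ifng, the interferon of T and NK cells, was 11.5-fold higher in Kupffer cells (adjusted p = 2.07e-10 from limma), whereas Ltb and Cd4 were not called, at 0.33 and 0.30 on the log2 scale (adjusted p = 0.149 and 0.166).
Within monocytes, the order of the samples by Ccr7 was also their order by the mean log2 level of the 6 T and NK cell genes that were above the background in all 12 samples (Cd4, Cd40lg, Il18rap, Ccl5, Lta and Ltb). This mean was 7.93 in sample 6 and 8.80 in sample 3, the ends of both orders. The mean of the 3 dendritic cell genes above the background in all 12 samples (Cd40, Cd86 and Relb) gave the same order as well. It ran from 7.92 in sample 6 to 8.24 in sample 3. The study counts CD86 among markers of macrophage functions, so Cd86 is not particular to dendritic cells. By the mean of 6 genes of macrophages and monocytes (Tyrobp, Itgb2, Tlr4, C1qa, C1qb and Ccr2), the order was the reverse. It was no longer the exact reverse with samples rescaled to their housekeeping genes without Gapdh. The order of the monocyte samples by Cxcr4, with sample 4 lowest and sample 1 highest, was none of these. With samples rescaled to their median gene, samples 1 and 2 changed places in the order by Ccr7 but not in that by the T and NK cell genes. Neither the T and NK cell genes nor the dendritic cell genes then gave the order by Ccr7. The macrophage and monocyte genes no longer gave its exact reverse. Samples 6 and 4 stayed the lowest in Ccr7, in Cxcr4 and in the T and NK cell genes. In Kupffer cells, samples 1, 4 and 6 were the lowest 3 for Ccr7 and Cxcr4. By the mean log2 level they were also the lowest 3 for the T and NK cell genes and the dendritic cell genes. The same held for the 6 early response genes named below (Fos, Jun, Myc, Cxcl2, Ccl3 and Ccl4). By the summed level of the same 6 T and NK cell genes, samples 1 and 6 were instead the highest, with 36631 and 19687 normalized counts. Sample 4 was the lowest by that sum, with 10247. By the mean of the macrophage and monocyte genes, Kupffer cell samples 1 and 6 were the lowest, at 9.31 and 9.38. Sample 4, the lowest for Ccr7 and Cxcr4, had 10.23, below only sample 2 at 10.29. After the rescaling to the median gene, samples 1, 4 and 6 stayed the lowest 3 for the receptors and, by the mean, for the dendritic cell genes. Sample 2 took the place of sample 1 for the means of the T and NK cell genes and of the early response genes. The part of other cells and of the early response in the receptor values was not tested.

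**Figure D3:**
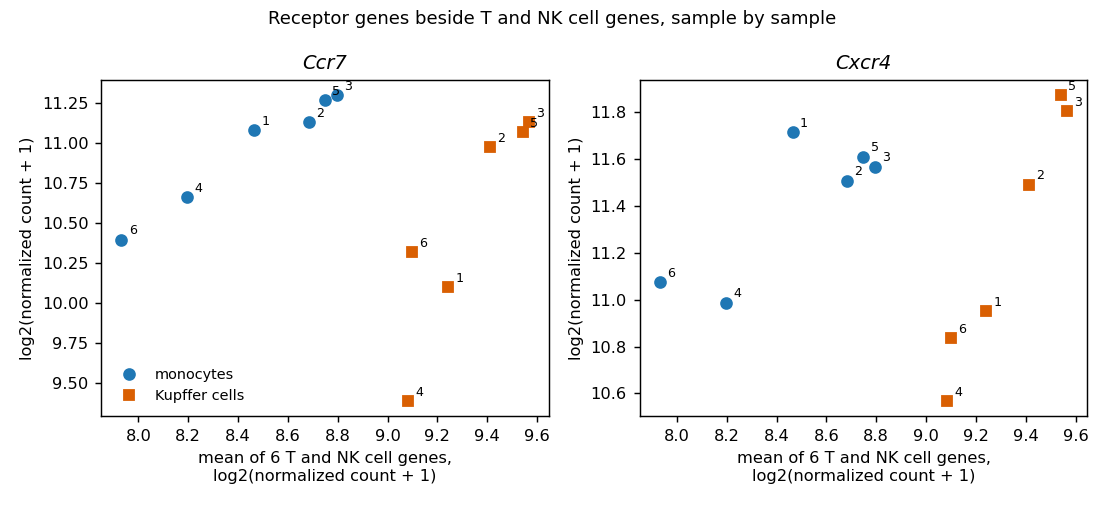
Ccr7 and Cxcr4 against the mean of 6 T and NK cell genes, all as log2(normalized count + 1), with 1 point per sample and its number (circles, monocytes; squares, Kupffer cells). In monocytes samples 6 and 4 are the lowest on both axes, and the Kupffer cell samples lie further right, from 9.08 to 9.57.

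Of the 6 genes of macrophages and monocytes, 5 were called lower in Kupffer cells and 0 higher, or 83.3% in all. In the whole panel 56.5% were called, 35.1% higher and 21.4% lower. The summed levels of the 6 genes were 16774 to 27108 in monocytes against 6222 to 10740.0 in Kupffer cells. Cd163, a scavenger receptor and the only Kupffer cell marker of the list that was analysed, was 2.16-fold higher in Kupffer cells (adjusted p = 0.00691 from limma) and above the background in all 12 samples. All 12 hepatocyte genes (100%) were called higher in Kupffer cells, beside 35.1% of the whole panel. Their sums were 5235 to 17329 there and 85.0 to 324 in monocytes, where 8 of the 12 were at the background in all samples. The study reads C2, C6, C9 and Crp of this list as transcribed in Kupffer cells. Which cells these counts came from was not tested. Of 6 early response genes, a class that cell isolation can induce, 4 were called higher and 1 lower in Kupffer cells, or 83.3% in all. The sums were 15695 to 29745 there, against 7891 to 14328 in monocytes. Of 6 dendritic cell genes, Ccl17 and Cd86 were called lower in Kupffer cells, or 33.3% in all. The sums were 738 to 1019.5 there, against 834 to 1035 in monocytes. Flt1, a receptor of vascular growth factors and the endothelial gene analysed, was higher in Kupffer cells (log2 fold change 2.09, adjusted p = 2.22e-05), with 5 of 6 monocyte samples at the background.

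The 3 ligand genes have to be read against the background, which is the highest of 8 negative controls in each sample, 5 to 27 counts in monocytes and 7 to 14 in Kupffer cells. Genes counted less often appear with the count of that control, to which the factor was not applied. On the normalized scale, a listed background can stand for any value up to 5.63 to 27 in monocytes and up to 11.7 to 30.4 in Kupffer cells, depending on the sample. For this reason the values of the ligands in most samples are limits. The listed backgrounds alone put a gene with no signal in any sample, such as Ccl11, at a log2 fold change of -0.64.

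Ccl19, a ligand of CCR7, exceeded the background in 4 of 6 Kupffer cell samples but in only 1 of 6 monocyte samples. The monocyte sample was number 2, which has the lowest background of all, and its value of 6.75 normalized counts rests on 6 molecules against 5 of the highest negative control (exact Poisson 95% interval 2.20 to 13.1 molecules, counting error only). The Kupffer cell values above the background were 23.5 in sample 1, 29.2 in sample 2, 31.9 in sample 4 and 27.5 in sample 6. They rest on 18, 16, 15 and 13 molecules, where the highest negative controls had 9, 14, 12 and 7. All 5 values are thus low, and the groups overlapped as listed. The log2 fold change was 0.21 (standard error 0.35, 95% interval -0.55 to 0.97; adjusted p = 0.589 from limma). It was -0.042 without monocyte sample 2 (adjusted p = 0.895), 0.40 after quantile normalization (adjusted p = 0.0440), and 1.07 where the listed background was multiplied by the factor of the sample (adjusted p = 0.000431), in a range of 0.000431 to 0.933 over the alternatives. With each background value at the highest it can stand for, a setting chosen after seeing the data, it was 0.54 (adjusted p = 0.119). With every value under 30.4 raised to 30.4, so that all samples had the same limit, it was 0.011 (adjusted p = 0.466).

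Ccl21a, the other ligand of CCR7, was above the background in monocyte sample 2, with 9.01 normalized counts or 8 molecules, and in Kupffer cell samples 1, 3, 4 and 6, with 15.7, 27.3, 27.6 and 27.5. These rest on 12, 14, 13 and 13 molecules. In Kupffer cell sample 5 the count of 14 molecules, 30.4 normalized counts, was equal to its highest negative control. Kupffer cell samples 1, 4 and 6 were thus above the background for both Ccl19 and Ccl21a. The log2 fold change was 0.28 (standard error 0.27, 95% interval -0.29 to 0.86; adjusted p = 0.353 from limma). Quantile normalization gave 0.38 (adjusted p = 0.0288) and the background multiplied by the factor 0.95 (adjusted p = 0.000431), in a range of 0.000431 to 1 over the alternatives. With each background value at its highest it was 0.42 (adjusted p = 0.158), with samples rescaled to the median 0.036 (adjusted p = 0.925), and with the common limit of 30.4 it was 0 (adjusted p = 1), since 0 samples exceeded that limit. Whether these 2 genes were called thus turned on the scaling and on the handling of the background.

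**Figure D4:**
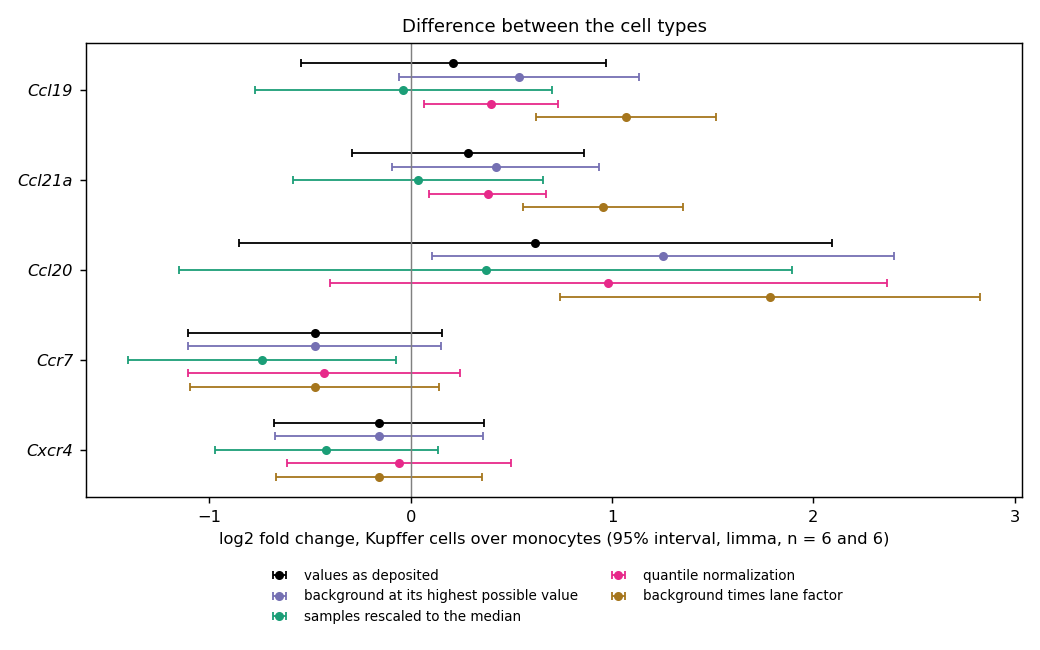
Log2 fold changes of the 5 genes, Kupffer cells over monocytes, with 95% intervals from limma (n = 6 and 6), for the values as deposited and for 4 other treatments of background and scaling. For Ccl19, Ccl21a and Ccl20 the position moves with the treatment of the background, up to 1.07, 0.95 and 1.79; Ccr7 lies between -0.74 and -0.43 and Cxcr4 between -0.42 and -0.06.

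Ccl20 did not exceed the background in any monocyte sample, nor in Kupffer cell samples 2, 3, 4 and 5. Kupffer cell sample 1 had 91.3 normalized counts, from 70 molecules, and sample 6 had 177.55, from 84 molecules. The exact Poisson 95% intervals were 71.2 to 115 and 142 to 219.8 normalized counts, both above 30.4, the highest value that a background can stand for in any of the 12 samples. The gene was thus clearly measured in these 2 samples, and in the 4 other Kupffer cell samples it was at most 17.5 to 30.4. Limma called no difference between the cell types (log2 fold change 0.62, standard error 0.68, 95% interval -0.85 to 2.09; adjusted p = 0.429). Without Kupffer cell sample 6 the log2 fold change was 0.085, without sample 1 it was 0.27, and without monocyte sample 2, with its low background, it was 0.33. It was 1.79 (adjusted p = 0.00554) with the background multiplied by the factor, in a range of 0.00554 to 0.886 over the alternatives. With each background value at its highest it was 1.25 (95% interval 0.11 to 2.40, adjusted p = 0.0618).
4 other genes of the panel were above the background in Kupffer cell samples 1 and 6 and in no other of the 6; they were singled out after their values were seen. Areg, the growth factor amphiregulin, had 219 and 239 normalized counts there, and Ltb4r2, a receptor of leukotriene B4, had 78.3 and 90.9. Il15 and Creb1 had 14.4 to 21.1, which is under the highest value that the background of other samples can stand for. Samples 1 and 6 were also among the lowest 3 Kupffer cell samples for Ccr7 and Cxcr4.
Of 4 genes whose products are known to induce Ccl20, Il17a and Tnf were called higher in Kupffer cells and Il1a and Il1b were not called. The share called was 50%, beside 56.5% of the whole panel. In Kupffer cells Il17a had 37.8 normalized counts in sample 1 and 31.7 in sample 6, against 97.8 in sample 5. Tnf had 121 and 80.3, against 153 in sample 4, and Il1b had 256 and 226, against 1104 in sample 2. Il1a had 23.5 and 61.3, against 108 in sample 4. These highest Kupffer cell values of the 4 genes were all in samples with Ccl20 at the background. Other such samples lay below sample 1 or 6: Tnf was 115 in sample 5, Il17a 29.75 in sample 4 and Il1a 33.1 in sample 3. For Il1b none did. The part of these genes in the Ccl20 values was not tested.

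Of 16 other chemokine ligand genes of the panel, 5 were called higher and 5 lower in Kupffer cells, or 62.5% in all, close to the 56.5% of the whole panel. Their median log2 fold change was -0.64 beside 0.05 for all genes, but this is also the value of a gene with no signal: the 17 genes at the background in all 12 samples, Ccl11 among them, had -0.66 to -0.64 from the listed backgrounds alone. Cxcl9, which draws activated T cells, was 6.73-fold higher (adjusted p = 0.000213 from limma), and Ccl4, a chemokine of activated macrophages and lymphocytes, 6.01-fold (adjusted p = 2.61e-08). The largest falls were those of Cxcl2 and Cxcl1, which draw neutrophils, by 4.81 and 4.69 on the log2 scale. With samples rescaled to the median, 10 of the 16 were lower, and with the background multiplied by the factor 9 were higher.
Of 6 other receptor genes, Ccr3 and Ccr4 were called higher and Ccr1 and Cxcr1 lower, or 66.7%. Ccr3, known from eosinophils, had a mean of 136 ± 50.3 normalized counts in the 6 Kupffer cell samples, whereas 4 of 6 monocyte samples were at the background (adjusted p = 7.34e-07). Ccr4, a receptor of T helper and regulatory T cells, had 46.4 ± 17.2 there, with 3 of 6 monocyte samples at the background (adjusted p = 0.00262). Ccr1, a receptor of monocytes, was 5.67-fold lower in Kupffer cells (adjusted p = 1.16e-06). For Cxcr1, only 1 monocyte sample and 0 Kupffer cell samples exceeded the background, so its call (adjusted p = 0.0183) compares background values. Ccr2, the receptor of CCL2, and Cxcr2 were not called, at -0.16 and -0.26 on the log2 scale (adjusted p = 0.508 and 0.475).

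Lymphotoxin, TNF and LIGHT signal through NF-kB, and the lymphotoxin beta receptor is known to induce Ccl19 and Ccl21 in lymphoid stroma. Of 8 genes of this list, 4 were called higher in Kupffer cells and 0 lower, or 50% in all, beside 56.5% of the whole panel. Their median log2 fold change was 0.49, beside 0.05 for all genes. Tnfsf14, which encodes LIGHT, was 3.40-fold higher (adjusted p = 7.34e-07 from limma), Tnf 2.39-fold (adjusted p = 0.000118), and Lta and Traf2 were called as well. Ltb, Nfkb1, Rela and Relb were not.
Of 19 genes of the signalling cascades that act downstream of chemokine receptors, 4 were called higher and 3 lower, or 36.8% in all. Their median log2 fold change was -0.16. Shc1, an adaptor, was 1.74-fold higher (adjusted p = 3.24e-05). Rhoa, a GTPase of the cytoskeleton, fell by 0.49 on the log2 scale (adjusted p = 0.00326), and Pik3c2g was called lower (adjusted p = 0.0183) with 5 of 6 monocyte and all 6 Kupffer cell samples at the background. With samples rescaled to the median, 2 of the 19 were higher and 11 lower.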

How the data were processed

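The authors deposited a normalized signal for every gene in every sample, namely counts that were scaled in nSolver 4.0 with 1 factor per sample, from positive controls and housekeeping genes by geometric means, and with a background threshold at the highest negative control. The factor of each sample was found as the number that divides each value over the background into whole molecules within 0.02. Factors of 0.554 to 1.13 (monocytes) and 1.30 to 2.17 (Kupffer cells) gave 158730 to 339100 and 80944 to 140029 counted molecules. In the 5 monocyte samples with a factor under 1, the lowest value above the background lay just over the listed background on the normalized scale, so a gene listed there can hold any value up to it. A gene was taken as at the background if listed at it or counted as often.
The 5 genes and all gene lists were chosen with earlier results of these data known. Differences were tested on log2(value + 1) by limma 3.58.1 in R 4.3.3 over 248 genes and 12 samples, with a threshold of 0.05 for the adjusted p, and the steps were tested on simulated data. Other steps ran in Python 3.11.15 with scipy 1.17.1, pandas 2.3.3 and numpy 2.4.6, and figures were drawn with matplotlib 3.10.9. Every adjusted p comes from the limma fit. The labels do not say that animals differed between pools, so p-values measure the spread between these samples. The genes named are the 5, the 3 genes most like each receptor, and up to 2 called genes per direction of each list; 1 gene that this rule names is not reported here. Promoter sequences are from RefSeq. The scaling, the treatment of the background, the pseudocount, a low-value filter, a replicate block, the test and each sample left out were varied. Of 252 gene names, 245 matched the annotation by symbol and 6 by an older one.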

Additional observations from a re-analysis of the deposited data

How the results depend on the processing

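Cxcr4 kept its direction and stayed uncalled under all 22 alternatives, and Ccr7 under all but rescaling to the median (-0.74, adjusted p = 0.0464), which lowers the median log2 fold change of all genes by 0.26. Multiplying the listed background by the factor of the sample gave log2 fold changes of 1.07 for Ccl19, 0.95 for Ccl21a and 1.79 for Ccl20, all called; by construction it lowers the background of 5 monocyte samples and raises that of all Kupffer cell samples. Quantile normalization called Ccl19 (0.40) and Ccl21a (0.38), and rescaling to the median (-0.038) and leaving out monocyte sample 2 (-0.042) reversed Ccl19; the cause was not tested. Leaving out each sample in turn gave -0.042 to 0.44 for Ccl19, 0.092 to 0.42 for Ccl21a, 0.085 to 0.92 for Ccl20, -0.60 to -0.26 for Ccr7 and -0.28 to -0.020 for Cxcr4, with 76 to 88 genes of the panel called higher and 46 to 86 lower, the last without monocyte sample 2. The background multiplied by the factor gave 140 genes higher (74.5% of calls), and rescaling to the median 108 lower, with 38.6% of calls higher (47.7% with quantile normalization) against 62.1%. The replicate numbers of the cell types share only a number: the correlation of same-numbered samples was -0.15 to 0.29, and 2 of 6 monocyte samples correlated best with their own number. With the replicate number as a block, Ccr7 had a log2 fold change of -0.48 (adjusted p = 0.0770), no call of the 5 genes changed, and 83 genes were called higher and 49 lower. A common limit of 30.4 for all samples gave 0.011 for Ccl19, 0 for Ccl21a and 0.68 for Ccl20. The filter on low values left out Ccl19, Ccl21a and Ccl20. The values of the 3 ligands are uncertain, as they rest on fewer than 20 molecules or on a listed background in all samples but 2 of Ccl20.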
